A study of Mus musculus with 4 samples.

Results

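Claudins are the membrane proteins that form the strands of the tight junction, the seal between neighbouring epithelial cells near their apical side. Some of them open channels through the seal, as Cldn2 and Cldn15 do for small cations and water, while others tighten it, and the mixture a cell carries sets how leaky its junctions are. In the colon the mixture differs between the base of the crypt and the surface, and tumour necrosis factor (TNF), an inflammatory cytokine, is known for loosening the barrier. The 9 claudins described here, Cldn1, Cldn2, Cldn3, Cldn4, Cldn7, Cldn8, Cldn12, Cldn15 and Cldn23, were chosen by name among the 30360 genes of the table, and all 9 were found.

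The RNA of single cells came from colonic organoids, cultures that were grown in a gel out of distal colon fragments taken from 16-week-old wildtype and Tnfr2-/- mice. Tnfr2-/- mice lack TNF receptor 2, the product of Tnfrsf1b, in every cell of the body and not in the epithelium alone. Each genotype gave 1 untreated (vehicle) culture and 1 culture that, after passage 5, received TNF (20 ng/ml) on days 1 through 6. All 4 cultures were harvested on day 7, apoptotic cells were depleted, and the RNA was read from its 3′ end. With 1 library per group there was no replicate, so no test was run, and genotype, mouse, culture and library cannot be told apart. Nor can strain, since the study's methods list the wildtype mice as C57BL/6 and the Tnfr2-/- line as B6.129S2.

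The deposited annotation put 4172 of the 6155 cells into 7 epithelial classes, and every level below comes from these unless mesenchyme is named. Values for the 4 libraries are always in the order wildtype untreated, wildtype TNF, Tnfr2-/- untreated, Tnfr2-/- TNF. Epithelial cells numbered 1128, 1163, 1023 and 858, with median depths of 37245.5, 30306, 41057 and 37368.5 UMIs (unique molecular identifiers, which count captured molecules), and mesenchymal cells numbered 1430, 306, 90 and 122. The summed level of 4 epithelial markers was 10231 to 12980 CPM (counts scaled to a total of 1000000 UMIs) over the epithelial cells, against 3.24 to 12.8 CPM for 4 mesenchymal markers. Of the classes named as progenitors, Progenitor.1 held 4 cell cycle markers at 701 to 1129 CPM, whereas Progenitor.2 held them at 11.9 to 44.9 CPM, so the cycle markers of progenitors were low in the class named Progenitor.2. That class also held 4 absorptive markers, at 3342, 1785, 729 and 567 CPM, and 5 goblet and deep secretory markers, at 37.5, 624, 75.9 and 1831 CPM. Its marker content thus differed between the libraries, and the part of this in the claudin differences within Progenitor.2 was not tested. Progenitor.1 supplied 54.9, 44.2, 72.5 and 12.9% of the epithelial UMIs, and Progenitor.2 supplied 3.34, 30.7, 19.6 and 84.8%. Tnfrsf1b itself stood at 4.17, 12.1, 1.82 and 6.89 CPM, but 3′ tags count the end of a transcript and need not cover a deleted part, so these levels do not check the genotype labels.

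Promoters were read from RefSeq for build GRCm38.p6, as the 250 bases before each start site, for the 7 claudins with an entry (all but Cldn8 and Cldn23). Cldn3 and Cldn4 are single-exon genes, at chr5:134986214-134987472 on the plus strand and chr5:134945119-134946934 on the minus strand, 39279 bases apart with 0 annotated genes between them. The claudin whose level differed by over 2-fold with TNF in both genotypes was Cldn4, and its promoter is shown with that of the pore-forming Cldn15, because these 2 held the AP-1 letters TGANTCA on either strand, here in capitals. Cldn4 covers chr5:134946935-134947184 (minus strand) and Cldn15 covers chr5:136967619-136967868 (plus strand). The Cldn15 window precedes a RefSeq start that lies inside the annotated gene, whose own start is upstream of the window, at chr5:136966616.
Cldn4: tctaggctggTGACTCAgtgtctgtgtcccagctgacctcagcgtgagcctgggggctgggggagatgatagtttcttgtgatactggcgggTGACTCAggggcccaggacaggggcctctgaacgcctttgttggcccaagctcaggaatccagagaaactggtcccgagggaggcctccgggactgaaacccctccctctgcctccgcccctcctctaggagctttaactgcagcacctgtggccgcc
Cldn15: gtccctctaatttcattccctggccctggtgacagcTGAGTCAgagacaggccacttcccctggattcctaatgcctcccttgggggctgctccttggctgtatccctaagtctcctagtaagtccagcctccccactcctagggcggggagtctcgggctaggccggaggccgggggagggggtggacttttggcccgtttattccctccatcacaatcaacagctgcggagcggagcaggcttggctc
The letters start at -240 and -158 from the start of Cldn4 and at -214 from that of Cldn15, and 6.75% of 32817 promoters of the same length held them. The promoter of the other pore-forming member, Cldn2, at chrX:139800558-139800807 (plus strand), is shown for the CDX letters TTTATG in capitals, which start at -244 and which 10.8% of promoters held.
Cldn2: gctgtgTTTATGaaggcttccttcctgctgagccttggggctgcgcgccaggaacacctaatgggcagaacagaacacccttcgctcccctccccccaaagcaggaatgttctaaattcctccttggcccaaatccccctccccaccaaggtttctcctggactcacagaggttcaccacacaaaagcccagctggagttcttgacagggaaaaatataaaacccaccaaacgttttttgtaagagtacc
A loose NF-kB motif, 3 G and 2 C around 5 free bases and held by 45.8% of promoters, was not found in the windows of Cldn1, Cldn2, Cldn3 or Cldn4 and was found in those of Cldn7, Cldn12 and Cldn15. The TEAD letters GGAATG, held by 12.6% of promoters, were found in the windows of Cldn2 (at -147), Cldn7 and Cldn15. The GRHL letters AACNNGTT, held by 3.64%, were not found in any window of the members. A match of letters describes the window and shows no bound factor.

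Levels are given as CPM over all summed UMIs with exact Poisson 95% intervals, which cover counting error only and say nothing of how much a second culture would differ. A 3′ library does not allow levels of different genes to be compared, so each gene is set only against itself, except in the share of pore-forming claudins below. Differences are on the log2(CPM + 1) scale, which understates those of scarce genes. A gene was counted as higher or lower when the difference was at least 2-fold and at least 1 library of the pair reached 20 CPM, a minimum that 5, 5, 4 and 4 of the 9 claudins met in the pairs TNF in wildtype, TNF in Tnfr2-/-, genotype untreated and genotype with TNF.

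Over all epithelial cells, Cldn4 was the 1 member higher by 2-fold with TNF in wildtype, where 2.54% of all genes were 2-fold higher and 1.08% lower (3.62% in all). In Tnfr2-/- Cldn4 was higher and Cldn2 lower with TNF, where 5.55% of genes were higher and 7.81% lower (13.4% in all). Between untreated genotypes 0 of 4 members passed 2-fold, against 2.42% of genes higher and 3.59% lower in Tnfr2-/- (6.01% in all). Between genotypes with TNF 0 of 4 passed, against 5.04% higher and 6.37% lower (11.4% in all). Cldn4 was higher in both TNF pairs, as were 0.92% of all genes, and no member was lower in both, as 0.0721% of genes were. The counts of 1 or 2 members per pair are too few to read against these shares beyond naming the genes. Within Progenitor.1, 1, 0, 0 and 0 of 4 members at the minimum passed 2-fold in the 4 pairs, where 2.46, 2.02, 2.25 and 3.33% of genes did. Within Progenitor.2 it was 0, 0, 0 and 1 of 4 members, where 7.46, 1.99, 7.98 and 7.92% of genes did.

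The median log2 difference with TNF was 0.20 over the claudins at the minimum and 0.04 over all genes in wildtype, and 0.37 and -0.12 in Tnfr2-/-. Between genotypes the claudin medians were 0.14 untreated and -0.21 with TNF, against 0.11 and -0.10 over all genes. With edgeR's TMM scaling in place of library totals the medians of all genes became -0.06, 0.05, -0.0018 and 0.08 over the 4 pairs, so differences near these sizes take their sign from the scaling.

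**Figure D1:**
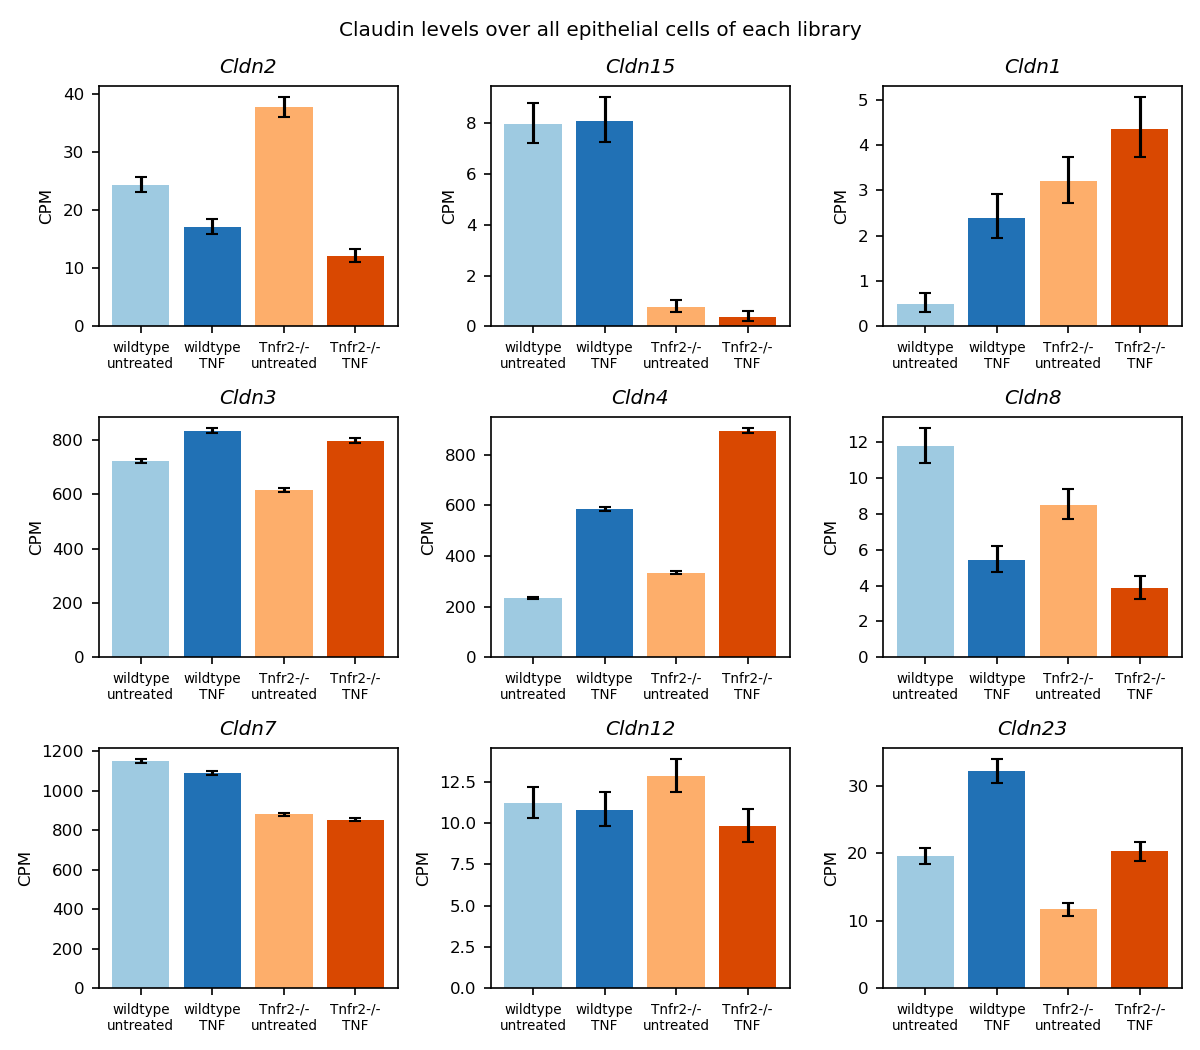
Level in CPM (linear axes, a separate one for each gene) of the 9 claudins over all epithelial cells of each library, with exact Poisson 95% intervals. Cldn4 bars are taller with TNF in both genotypes, Cldn15 is near the axis in both Tnfr2-/- libraries, and Cldn2 is lowest in the Tnfr2-/- TNF library at 12.1 CPM.

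Cldn2, which forms channels for cations and water and is known from the proliferative part of the crypt, stood at 24.4 (23.0 to 25.8) CPM untreated and 17.1 (15.9 to 18.4) with TNF in wildtype, and at 37.6 (36.0 to 39.4) and 12.1 (11.04 to 13.2) in Tnfr2-/-. The gene lies at chrX:139800828-139811386. It was lower with TNF in both genotypes, with differences of -0.49 in wildtype and -1.56 in Tnfr2-/- (a ratio of 0.321), and none of these intervals overlapped. The order of the libraries therefore ran from the Tnfr2-/- TNF culture, through wildtype TNF and wildtype untreated, to the untreated Tnfr2-/- culture.

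Within classes the picture of Cldn2 was different. In Progenitor.1 it stood at 40.4, 29.2, 47.9 and 42.9 CPM, so the TNF difference was -0.45 in wildtype and -0.16 in Tnfr2-/-, where the intervals overlapped. Progenitor.2 held less of it in each library, at 1.19, 3.31, 8.98 and 7.53 CPM, the first of these from 2 UMIs. Absorptive cells held 1.31 and 1.16 CPM in the wildtype cultures and 0 UMIs in 11 Tnfr2-/- untreated cells, which at a floor of 3 counts allows up to 5.56 CPM. After each cell was thinned to 5000 UMIs, 18.1, 14.0, 18.3 and 16.0% of Progenitor.1 cells carried a Cldn2 UMI (60.4, 49.3, 68.2 and 54.7% unthinned), against 0.141% or less of mesenchymal cells, whose median depths were 22642.5 to 48633 UMIs.

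A split of each pooled difference into the part carried by the shares of the classes and the part carried by levels within classes put numbers on this. Of the Cldn2 difference of -25.5 CPM with TNF in Tnfr2-/-, class shares (of the epithelial UMIs) carried -22.3 and levels within classes -3.21 CPM. In wildtype the difference of -7.26 CPM was carried mostly within classes, at -5.91 CPM against -1.35 for shares. When the classes were weighted equally, Cldn2 was 0.13 higher with TNF in Tnfr2-/-. That sign rests on 1 class, since Cldn2 lay higher in 1 of 4 classes and lower in 3, with overlapping intervals in each. The higher class was Progenitor.3 (1.42), whose 47.0 CPM with TNF came from 11 cells holding 5 UMIs of Cldn2 and Cldn15 together.

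Cldn15, the other cation channel former of the set, was lower in Tnfr2-/- than in wildtype in both treatments. It lies at chr5:136966616-136975858. Its wildtype levels were 7.97 (7.21 to 8.79) and 8.10 (7.26 to 9.02) CPM, and those in Tnfr2-/- were 0.770 (0.548 to 1.05) untreated and 0.352 (0.192 to 0.591) with TNF. Both Tnfr2-/- libraries lay below both wildtype libraries, with ratios of 0.0966 untreated and 0.0434 with TNF. It never reached 20 CPM in these sums and so was not counted, and the TNF difference of 0.02 in wildtype turned to -0.07 with TMM scaling.

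Of the classes found in several libraries, Secretory-Reg4-Spdef-Lyz1, the deep secretory cells, had the highest Cldn15 level, at 53.5 (45.4 to 62.8) and 32.1 (27.9 to 36.8) CPM in the wildtype cultures and 5.44 (2.90 to 9.30) in untreated Tnfr2-/-. With TNF only 8 such Tnfr2-/- cells were present, with 0 Cldn15 UMIs, which at a floor of 3 counts allows up to 11.2 CPM. In Progenitor.1 both Tnfr2-/- libraries again lay below both wildtype ones, at 5.25, 3.94, 0.572 and 0 CPM, and enteroendocrine cells had 0 Cldn15 UMIs in all 4 libraries. Of the genotype differences of -7.20 and -7.75 CPM, levels within classes carried -6.66 and -5.11. The small pooled TNF difference in wildtype, 0.133 CPM, was made of 3.83 from class shares and -3.70 within classes. Cldn15 lay lower with TNF in 4 of 6 wildtype classes, and in the deep secretory cells the intervals did not overlap.

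Among the claudins known as sealing, Cldn4 was higher with TNF in each genotype. It stood at 234 (229 to 238) CPM untreated and 585 (577 to 592) with TNF in wildtype, and at 334 (329 to 339) and 895 (886 to 904) in Tnfr2-/-, a TNF difference of 1.32 in wildtype and 1.42 in Tnfr2-/-. Both TNF libraries lay above both untreated ones, and within each treatment the pooled Tnfr2-/- level was the higher. The pooled genotype differences were 101 CPM untreated and 310 with TNF. Class shares carried 76.2 and 359 of these, and levels within classes 24.5 and -48.8. Untreated, Cldn4 lay lower in Tnfr2-/- in 4 of 6 classes, 3 without overlap of intervals, and higher in 2, without overlap. With TNF it lay lower in 3 of 4 classes, 1 without overlap, and higher in 1, with overlap.

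The similar pooled TNF differences were made up differently. In Progenitor.1 Cldn4 stood at 169, 364, 191 and 251 CPM, a TNF difference of 1.10 in wildtype and 0.39 in Tnfr2-/-. In Progenitor.2 the levels were 692, 1012, 907 and 1007 CPM, with differences of 0.55 and 0.15. The Tnfr2-/- difference minus the wildtype one was -0.71 in Progenitor.1 and -0.40 in Progenitor.2, which was not tested. The lowest Progenitor.2 value came from 62 wildtype untreated cells, whose median depth of 15574.5 UMIs was below the 33685 to 39167 of the other libraries, and the part of depth in it was not tested.

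Cldn4 lay higher with TNF in 6 of 6 wildtype classes with at least 10 cells in both libraries, and the intervals did not overlap in 5 of them. In Tnfr2-/- it lay higher in 4 of 4 classes, 3 of them without overlap. Absorptive cells went from 293 to 682 CPM in wildtype (319 and 19 cells), deep secretory cells from 318 to 498, and enteroendocrine cells from 375 to 461 CPM, the last with overlapping intervals. Of the 351 CPM by which Cldn4 was higher in the wildtype pool, levels within classes carried 239 and class shares 112. In Tnfr2-/- the weight was the other way, with 84.1 of 561 CPM within classes and 476 from shares.

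**Figure D2:**
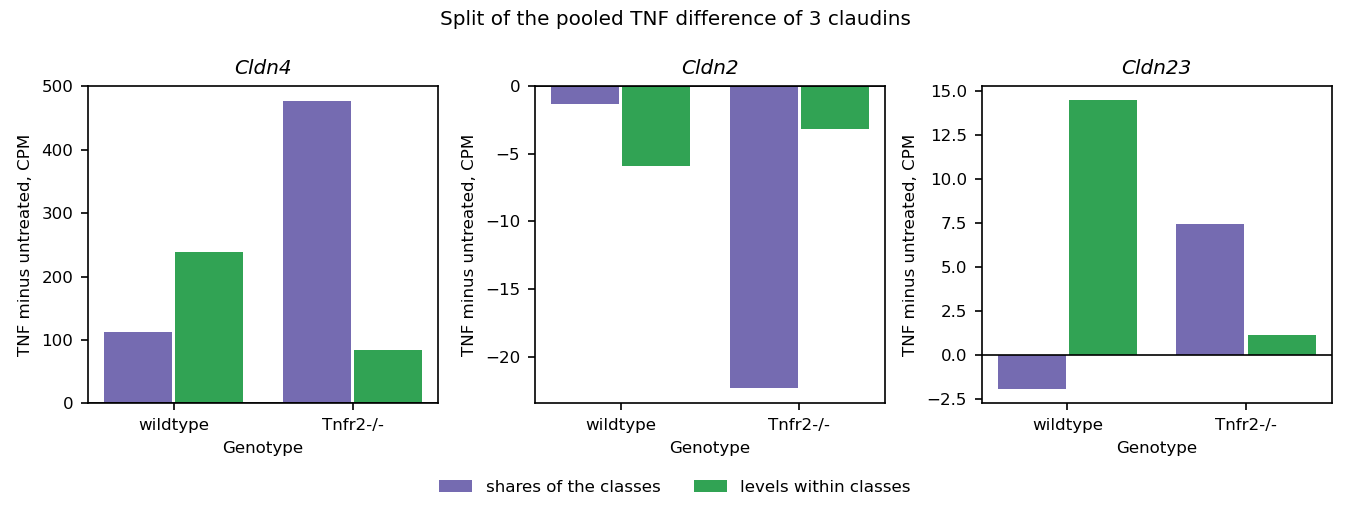
Pooled TNF difference in CPM of Cldn4, Cldn2 and Cldn23 in each genotype, split into the part carried by the shares of the classes and the part carried by levels within classes. In Tnfr2-/- the shares bar is the longer for all 3 genes (476, -22.3 and 7.44 CPM), and in wildtype the within-class bar is (239, -5.91 and 14.5 CPM).

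Counted per cell, 55.2, 75.7, 61.5 and 83.8% of epithelial cells carried a Cldn4 UMI after thinning to 5000 UMIs (85.6, 85.6, 92.3 and 97.8% unthinned), against 0.776 to 9.17% of mesenchymal cells. In wildtype Progenitor.1 the share was 50.9% untreated and 74.3% with TNF (92.3 and 99.1% unthinned). In Tnfr2-/- Progenitor.1 it was 53.7 and 47.9% (95.7 and 91.6% unthinned), with overlapping intervals and the opposite order to the CPM, so no order is read from that share. The median Progenitor.2 cell held 2, 5, 3 and 4 Cldn4 UMIs out of 5000, and the highest cells held 22, 26, 26 and 35.

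Cldn3, a sealing claudin of most gut epithelium, was present in all classes and differed less between libraries, at 724, 834, 616 and 798 CPM. TNF differences were 0.20 and 0.37, above 0 under library totals and under TMM. The genotype difference with TNF, -0.06, became 0.09 under TMM. Progenitor.2 held 1214, 1124, 966 and 843 CPM, and there the level was lower with TNF in both genotypes (-0.11 and -0.20), while Progenitor.1 held 562, 642, 527 and 542 CPM. Thinned to 5000 UMIs, 90.6 to 92.9% of epithelial cells carried a Cldn3 UMI (92.3 to 98.5% unthinned) and 1.16 to 4.17% of mesenchymal cells did.

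Cldn8, a sealing claudin of the distal colon at chr16:88560828-88563183, stood at 11.8, 5.44, 8.51 and 3.85 CPM, under the minimum in all 4 libraries. The TNF differences were -0.99 and -0.97, and the intervals of the untreated and TNF libraries did not overlap in either genotype. In wildtype absorptive cells, where Cldn8 was highest, it went the other way, from 16.7 (14.8 to 18.8) to 32.4 (21.5 to 46.9) CPM, the latter from 28 UMIs in 19 cells. Those cells made up 28.3% of wildtype untreated epithelial cells but 1.63, 1.08 and 0.117% in the other libraries, and class shares carried -6.22 of the pooled -6.32 CPM. The within-class part of -0.101 CPM joined opposite directions, as Cldn8 lay lower with TNF in 4 of 6 wildtype classes. In 2 of these the intervals did not overlap, Progenitor.1 (10.1 to 5.69 CPM) and the deep secretory cells (10.2 to 4.34). In Tnfr2-/- it lay lower in 4 of 4 classes, 1 without overlap, and levels within classes carried -1.98 of -4.66 CPM.

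Cldn1, a sealing claudin at chr16:26356642-26371841, was scarce, at 0.497, 2.39, 3.20 and 4.35 CPM, from 25, 99, 162 and 173 UMIs. Progenitor.2 held 11, 88, 162 and 172 of these, most of them in each library but wildtype untreated, or 6.55, 6.94, 16.3 and 5.10 CPM. Within that class the TNF difference of Cldn1 was 0.07 in wildtype, with overlapping intervals, and -1.51 in Tnfr2-/-, without overlap. The pooled TNF differences were 1.18 in wildtype and 0.35, with overlapping intervals, in Tnfr2-/-. In Tnfr2-/- shares carried 7.00 and levels within classes -5.85 CPM. Progenitor.1 had 8, 4, 0 and 0 UMIs.

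Cldn7, which is found along the lateral membrane of colonic cells as well as in tight junctions and lies at chr11:69964779-69967885, differed by genotype and little with TNF. It stood at 1150, 1089, 882 and 854 CPM, with TNF differences of -0.08 and -0.05, the second of which became 0.12 under TMM. The genotype differences were -0.38 untreated and -0.35 with TNF, under 2-fold but with no overlap of intervals. In Progenitor.2 they were -0.68 and -0.61 (1316, 1311, 823 and 857 CPM), and in Progenitor.1 -0.10 and -0.24 (970, 1012, 907 and 856 CPM). Untreated, 5 of 6 classes were lower in Tnfr2-/-, all 5 without overlap, and the exception was the enteroendocrine class (0.25, with overlap).

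Cldn23, at chr8:35824712-35826559, had the direction of Cldn4 with TNF. It stood at 19.6 (18.4 to 20.8) and 32.1 (30.4 to 33.9) CPM in wildtype, and at 11.7 (10.8 to 12.7) and 20.3 (18.9 to 21.7) in Tnfr2-/-, with TNF differences of 0.69 and 0.74. Unlike that of Cldn4, its pooled level was lower in Tnfr2-/- than in wildtype in both treatments, with differences of -0.70 and -0.64. Untreated, class shares carried -7.19 of the -7.88 CPM, and Cldn23 lay higher in Tnfr2-/- in 4 of 6 classes, where intervals overlapped in all 4, and lower in 2, 1 of them without overlap. With TNF it lay lower in Tnfr2-/- in 3 of 4 classes, 2 without overlap, and class shares carried 14.6 and levels within classes -26.4 of the -11.8 CPM.

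Within Progenitor.2 Cldn23 was at 31.6 (23.6 to 41.3) CPM untreated and 63.1 (58.8 to 67.6) with TNF in wildtype, against 19.5 (16.8 to 22.4) and 21.9 (20.3 to 23.5) in Tnfr2-/-. The TNF difference was 0.98 in wildtype and 0.16 in Tnfr2-/-, where the intervals overlapped, and the second minus the first, -0.82, was not tested. Between genotypes with TNF the difference was -1.49, which made Cldn23 the 1 member past 2-fold in that pair of Progenitor.2 sums. The thinned shares of Progenitor.2 cells with a UMI were 14.3, 31.9, 6.67 and 9.72% (33.9, 78.4, 36.1 and 46.2% unthinned), against 0.336% or less in mesenchyme. In all 6 wildtype classes Cldn23 lay higher with TNF, 3 of them without overlap, and in Tnfr2-/- it lay higher in 2 of 4.

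**Figure D3:**
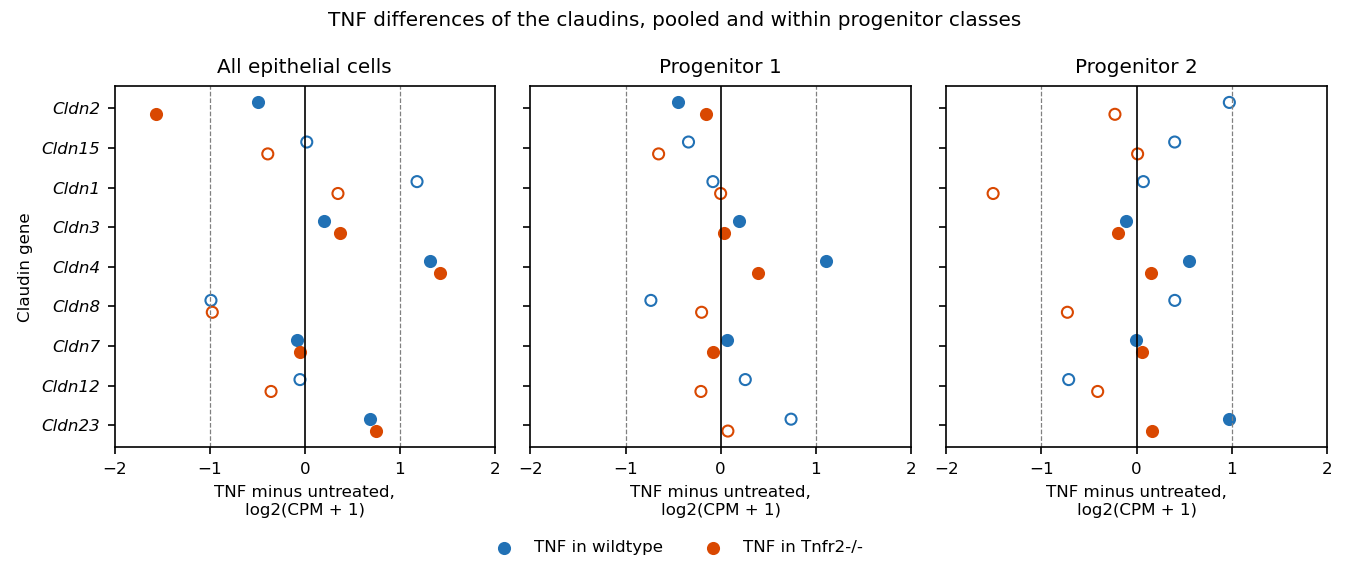
TNF minus untreated difference on the log2(CPM + 1) scale of each claudin over all epithelial cells, in Progenitor.1 and in Progenitor.2, for wildtype (blue) and Tnfr2-/- (orange), with 2-fold marked by dashed lines. Filled points reached 20 CPM in at least 1 library and open points did not, and the Cldn4 points at 1.32 and 1.42 in the pool stand at 1.10 and 0.39 in Progenitor.1.

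Cldn12, which lacks the tail motif that binds scaffold proteins in most claudins and lies at chr5:5489537-5514958, varied little, at 11.2, 10.8, 12.8 and 9.80 CPM. In wildtype the TNF intervals overlapped (-0.05), and in Tnfr2-/- the difference was -0.35, without overlap. Mesenchymal cells held it at 3.42, 9.93, 3.67 and 10.9 CPM, so that with TNF the epithelial and mesenchymal intervals overlapped in both genotypes. The thinned share with a UMI was 4.61 to 5.86% of epithelial cells (27.6 to 39.8% unthinned) and 1.16 to 9.17% of mesenchymal cells.

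The share of the 9 claudins' UMIs that belonged to the pore-forming Cldn2 and Cldn15 is a ratio within a library and does not depend on scaling. Over all epithelial cells it was 1.48% (1.41 to 1.55) and 0.975% (0.917 to 1.04) in wildtype, and 2.01% (1.93 to 2.11) and 0.479% (0.438 to 0.523) in Tnfr2-/-. The TNF difference was -0.505 percentage points in wildtype and -1.54 in Tnfr2-/-, and no intervals overlapped. The 9 claudins together, the base of the share, stood at 2183, 2583, 1906 and 2598 CPM. A lower share with TNF therefore joins a change of Cldn2 and Cldn15 with a larger base. Since 3′ capture differs between genes, this is not the share of transcripts or protein.

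In Progenitor.1 the pore-forming share was 2.57, 1.59, 2.84 and 2.49%, with TNF differences of -0.978 points in wildtype and -0.350 in Tnfr2-/-, where the intervals overlapped. In Progenitor.2 it was 0.0908, 0.169, 0.340 and 0.288%, with overlapping intervals in both TNF pairs. Between genotypes with TNF the pooled difference was -0.496 points, yet the Tnfr2-/- share was higher by 0.903 points in Progenitor.1 and by 0.119 in Progenitor.2. Deep secretory cells held 3.49, 1.83 and 1.23% in the first 3 libraries, of which Cldn15 made up most in wildtype.

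**Figure D4:**
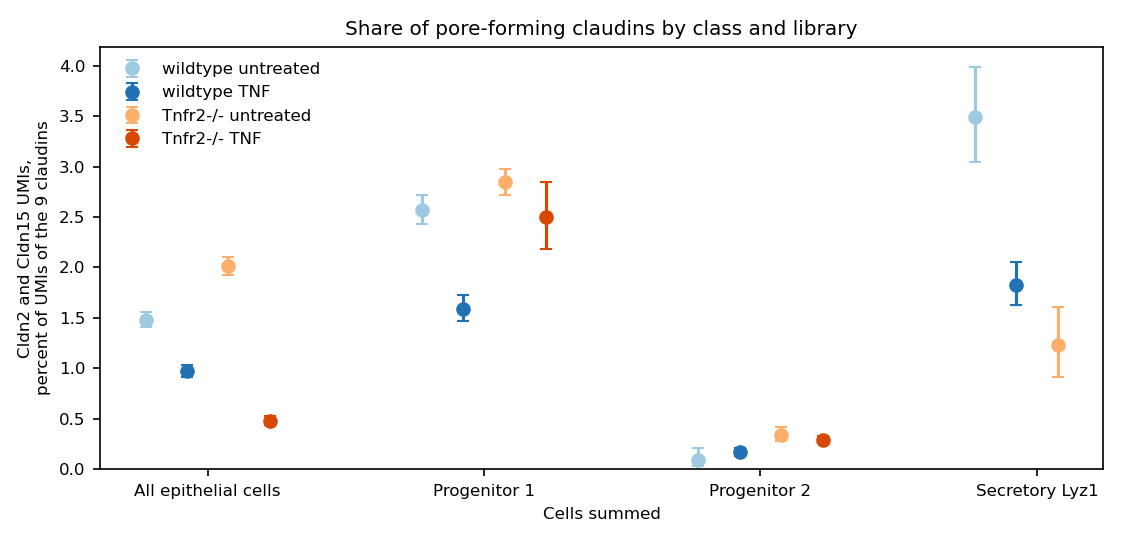
Share of the UMIs of the 9 claudins that belonged to Cldn2 and Cldn15, in percent with exact binomial 95% intervals, over all epithelial cells and in 3 classes, for each library with at least 10 cells. The Tnfr2-/- TNF library is lowest in the pool (0.479%) and lies above wildtype TNF in Progenitor.1 (2.49 against 1.59%).

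Across the classes each claudin had its own order, taken as the mean of the libraries with at least 10 cells in a class. Cldn2 was highest in Progenitor.1 (29.2 to 47.9 CPM over the libraries) and Progenitor.3 (15.7 to 47.0), whose ranges overlapped, and lowest in absorptive cells (0 to 1.31), which overlapped Progenitor.2 (1.19 to 8.98). The overlap of Progenitor.3 with Progenitor.1 rests on 11 Tnfr2-/- TNF cells with 5 UMIs of Cldn2 and Cldn15 together. In the wildtype cultures Progenitor.3 held Cldn2 at 15.7 and 19.3 CPM. By this mean Cldn3, Cldn7 and Cldn23 were highest in absorptive cells, at 765 to 1659, 1131 to 1606 and 39.8 to 70.6 CPM, and these ranges overlapped those of Progenitor.2. For Cldn3 the order rests on 19 wildtype TNF cells (1659 CPM), since in both untreated libraries Progenitor.2 was above absorptive cells (1214 against 989 and 966 against 765 CPM). Cldn4 was highest in Progenitor.2 (692 to 1012 CPM), with no overlap with absorptive cells (234 to 682) and with Progenitor.1 (169 to 364) among the low classes. Progenitor.3, whose median depth was 6364 to 9570 UMIs, had the least Cldn3 (188 to 385 CPM, overlapping the 308 to 400 of enteroendocrine cells) and the least Cldn4 (18.8 to 160). The 246 cells of Secretory-Reg4-Ang4, found in wildtype TNF alone at a median of 1957.5 UMIs and with mesenchymal markers at 422 CPM, held Cldn4 at 669 and Cldn15 at 33.4 CPM.

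**Figure D5:**
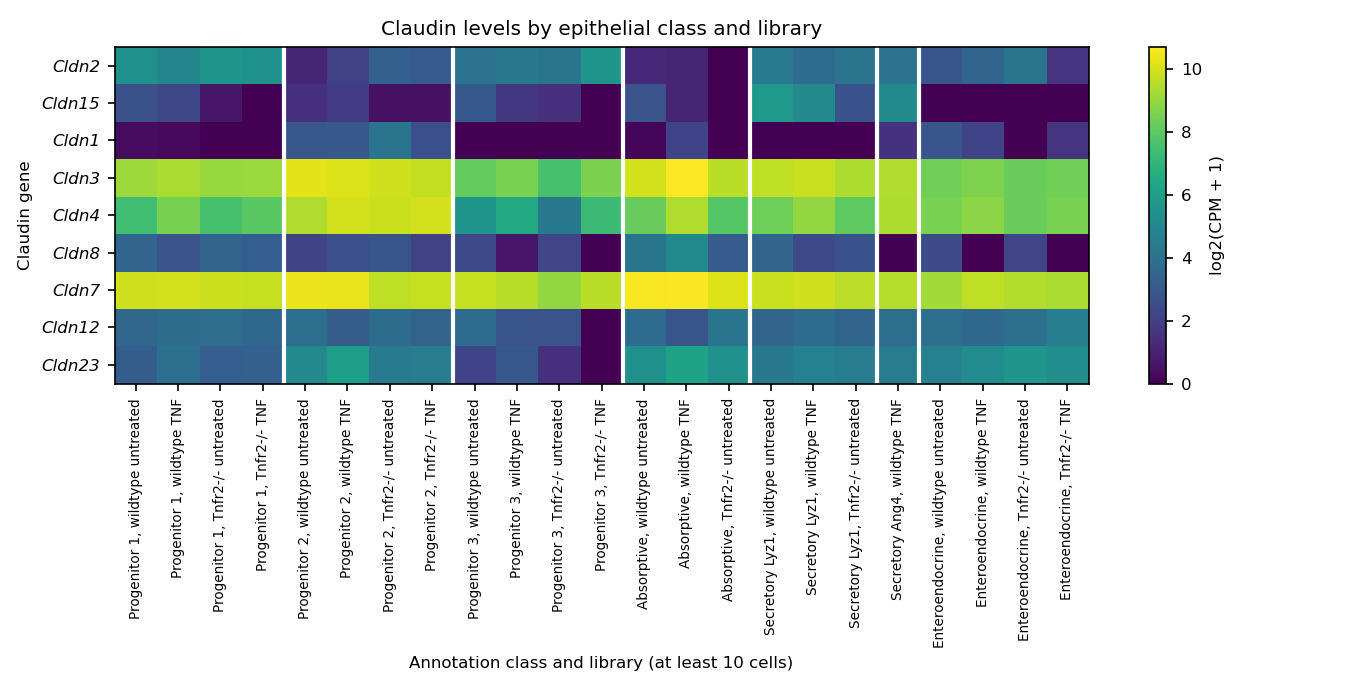
Level of each claudin as log2(CPM + 1), by colour, in each epithelial class and library with at least 10 cells. Cldn1 is highest in Progenitor.2 (5.10 to 16.3 CPM), Cldn2 is low in Progenitor.2 and absorptive columns, and Cldn15 is brightest in the secretory columns of wildtype.

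Over the 19 class and library sums with at least 20 cells and 200000 UMIs, which share libraries and differ in depth, Cldn4 and Cldn23 varied together (Pearson r = 0.86), as did Cldn3 with Cldn7 (0.78) and Cldn3 with Cldn4 (0.78). Cldn2 ran against Cldn23 (-0.67) and Cldn1 (-0.56). Of 5720 genes compared, those most like Cldn4 were Dusp1, a phosphatase of MAP kinases (0.97), Sqstm1, an autophagy receptor (0.96), and Mink1 (0.93). Those most like Cldn2 were Pes1, a ribosome assembly factor, Mcm7, a subunit of the replicative helicase, and Gtpbp4, each at 0.93. For Cldn3 they were Cd9, Slc44a4 and Nipal1 (each 0.94), for Cldn7 the drug exporter Abcb1a (0.95), Aph1a (0.90) and Slc22a18 (0.89), and for Cldn23 the antigen-presenting molecule H2-D1 (0.93), Dnajb9 (0.92) and Slain2 (0.92). No test was made on these related sums.

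The other genes of the junction were taken from lists of tight junction, adherens junction, desmosome and junction regulator genes. With TNF in wildtype, 0 of 20 tight junction genes at the minimum passed 2-fold, where 3.62% of all genes did, with a list median of 0.26 against 0.04 over all genes. In Tnfr2-/- 5 of 20 were higher, beside 5.55% of all genes, and the list median was 0.45 against -0.12. Except for Tjp1, the junction list genes named as past 2-fold were chosen after their values were seen. The 5 were Tjp1 (the scaffold ZO-1; 1.08), F11r (the adhesion molecule JAM-A; 1.05), Cxadr (1.16), Mpp5 (1.23) and Pard6b (1.12), the last 2 being polarity proteins. Within Tnfr2-/- Progenitor.1 and Progenitor.2 none of these 5 reached 2-fold: the differences were -0.05 and 0.25 for Tjp1, 0.10 and 0.08 for F11r, 0.58 and 0.31 for Cxadr, 0.33 and 0.33 for Mpp5, and 0.32 and 0.19 for Pard6b.

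Tjp1 itself stood at 81.6, 90.2, 79.6 and 169 CPM, so the Tnfr2-/- TNF library was apart from the other 3. Ocln, the junction protein occludin, was at 36.9, 41.7, 43.0 and 64.2 CPM and did not reach 2-fold in any pair. Between genotypes, Ildr1, a protein of tricellular contacts, was lower untreated (90.7 against 35.4 CPM). In Progenitor.1 and Progenitor.2 that difference was -0.87 and -1.10.

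Of 9 adherens junction genes at the minimum, 0 passed 2-fold with TNF in wildtype (3.62% of all genes) and 1, Nectin2 (1.13), was higher in Tnfr2-/- (5.55% of all genes). Cdh1, the adhesion protein E-cadherin, was at 205, 289, 278 and 394 CPM, and Epcam at 2933, 3162, 2053 and 2485 CPM, neither past 2-fold. The genotype pairs, in which 6.01 and 11.4% of all genes passed 2-fold, called 0 adherens junction genes untreated and 1 with TNF, Afdn. Among desmosome genes, 0 were called with TNF in either genotype and 1, Ppl, between genotypes with TNF. Of 14 junction regulators at the minimum, 0 passed 2-fold with TNF in either genotype, beside 3.62 and 13.4% of all genes. Between genotypes Vdr, the vitamin D receptor, was lower untreated (22.9 against 3.81 CPM), and with TNF the proteases St14 and Prss8 were higher and Cdx1, a gut transcription factor, lower. In Progenitor.1 and Progenitor.2, with no minimum applied, these differences were -1.06 and -1.54 for Vdr, 0.17 and 0.74 for St14, 0.34 and 1.17 for Prss8, and -0.70 and -1.56 for Cdx1. In the same classes those named above were 0.39 and 0.56 for Afdn, 0.41 and 0.88 for Ppl, and 0.55 and 0.32 for Nectin2. No gene of these 4 lists passed 2-fold the same way in both TNF pairs, or in both genotype pairs, where 1.13% of all genes were higher and 1.41% lower in both. Of the 3 NF-kB targets used to check the treatment, Tnfaip3 (23.6, 58.9, 31.3 and 93.0 CPM) passed 2-fold with TNF in both genotypes and Birc3 (10.6, 28.1, 13.5 and 25.6 CPM) in wildtype. The third, Nfkbia (313, 567, 290 and 575 CPM), did not pass in either. These are pooled values. Within Progenitor.1 and Progenitor.2 of wildtype the TNF differences were 1.22 and 1.16 for Tnfaip3, 1.27 and 0.89 for Birc3, and 1.10 and 1.10 for Nfkbia. Within the same classes of Tnfr2-/- they were 0.89 and 0.56 for Tnfaip3, 0.19 and 0.09 for Birc3, and 0.59 and 0.26 for Nfkbia.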

How the data were processed

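The authors deposited a matrix of UMI counts, made from 10x Genomics 3′ libraries, per the submitters' processing notes with Cell Ranger 5.0.0 and mm10, as raw counts per gene and cell, with a cell table giving class, genotype and treatment. Library totals were 87228093, 56063515, 53178273 and 44547639 UMIs, and 3 barcodes occurred in more than 1 library. Counts were summed per library over the epithelial cells or a class, scaled to CPM (pseudocount 1) and given exact Poisson intervals, with Clopper-Pearson intervals for shares. All genes set the background. Classes under 10 cells in a library were not compared. The split of a difference uses shares of UMIs and the pair's mean share and mean level. Scrublet marked 47 of 6155 cells (0.764%, 4 of them epithelial), and none were removed. Cells under 5000 UMIs (405) were left out of thinned shares; this kept 1085 of 1128, 873 of 1163, 990 of 1023 and 846 of 858 epithelial cells in library order, fewest with TNF in wildtype. TMM came from edgeR 4.0.16 in R 4.3.3, and the rest from Python 3.11.15. Members and gene lists were chosen with earlier results of these data known. Named genes were the 9 members, other claudins at 20 CPM, Tnfrsf1b, Tjp1, Ocln, Cdh1, Epcam, Nfkbia, Tnfaip3, Birc3, list genes past 2-fold in both pairs, and the 3 genes most like each member at 20 CPM; other genes were named after their values were seen. The calling step was run on simulated counts for the wildtype TNF pair. These held counting error and planted changes larger than the limit, so the run says nothing of differences between cultures.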

Additional observations from a re-analysis of the deposited data

Results flagged for a closer look

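In mesenchymal cells, which held far less Cldn3, Cldn4 and Cldn7 than epithelial cells, the TNF differences of 3 claudins ran in opposite directions in the genotypes, and the difference between them was not tested. They were -1.28 in wildtype and 2.71 in Tnfr2-/- for Cldn3, -0.89 and 4.03 for Cldn4, and -0.78 and 1.77 for Cldn7 (log2 of CPM + 1). The epithelial keratin Krt8 moved with them, at 51.6, 22.2, 24.8 and 234 CPM in the 4 mesenchymal sums. In the Tnfr2-/- TNF library the 5 highest of 122 cells held 69.4% of the 252 Cldn4 UMIs, and without the 5 cells richest in Krt8 the level went from 52.8 to 20.3 CPM.

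Cldn7 also had opposite signs within Progenitor.1 (0.0617 in wildtype, -0.0837 in Tnfr2-/-) and within Progenitor.3 (-0.23 and 0.64), the latter with 11 Tnfr2-/- TNF cells, and neither contrast was tested. The cells that the annotation left without a class, 31 in wildtype untreated and 4 in Tnfr2-/- untreated, carried claudins well above the mesenchymal level. They held Cldn3 at 575 and 388 CPM, Cldn4 at 335 and 187 CPM, and Cldn7 at 818 and 657 CPM.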

How the results depend on the processing

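No paired analysis was possible because each group had 1 library. Counts of claudins past 2-fold changed with several settings; the cause was not tested. With TNF in wildtype (1 as reported) the count was 2 without the minimum, at 1.5-fold and after thinning, and 0 with classes weighted equally or in Progenitor.2. Of all genes 2.69, 9.82, 3.13, 2.32 and 7.46% passed in that order. With TNF in Tnfr2-/- (2) the count was 0 with classes weighted equally, in Progenitor.1 and in Progenitor.2, and 3 at 1.5-fold. There 3.35, 2.02, 1.99 and 34.7% of all genes passed, against 13.4% as reported. Between untreated genotypes (0) the count was 1 (Cldn15, lower) at a minimum of 5 CPM, 2 without a minimum and 1 at 1.5-fold. Beside it, 7.04, 4.88 and 17.7% of all genes passed. With TNF (0) the count was 1, 1 and 2 under the same settings and 1 in Progenitor.2, beside 12.6, 8.17, 31.3 and 7.92% of all genes. The pore-forming share differed by -0.505 points with TNF in wildtype, and by -0.978 in Progenitor.1, 0.0787 in Progenitor.2 and -0.775 thinned. In Tnfr2-/- (-1.54) it was -0.0369 with equal weights, -0.350 in Progenitor.1, -0.0518 in Progenitor.2 and -1.41 thinned. Between untreated genotypes (0.534) it was 0.322 as a mean over cells, -0.166 with equal weights, 0.275 in Progenitor.1, 0.249 in Progenitor.2 and 0.281 thinned. With TNF (-0.496) it was -0.683, 0.545, 0.903, 0.119 and -0.357 in the same order. The Cldn2 difference with TNF in Tnfr2-/- was 0.13 with equal weights, where 1 of 4 classes, Progenitor.3 with 11 TNF cells, was higher and 3 were lower. Of 432 values of single claudins under 12 alternatives, 384 kept their sign. That count is too generous, since changing the pseudocount alone cannot turn a sign and a value of 0 was counted as kept.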

Other observations

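Of the 24 other claudin rows in the table, 12 had 0 UMIs in the epithelial cells of all 4 libraries and 11 stayed at or below 1.07 CPM. The remaining 1, Cldn14, is known from the inner ear and kidney. Over all epithelial cells it stood at 16.1, 82.5, 24.996 and 36.8 CPM, a TNF difference of 2.29 in wildtype and 0.54 in Tnfr2-/-. Its level was highest in enteroendocrine cells, the hormone-secreting class, at 922 (850 to 999) and 2100 (2005 to 2199) CPM in wildtype and 768 (697 to 845) and 1413 (1309 to 1522) in Tnfr2-/-, in 33, 31, 18 and 27 cells. There it was higher with TNF by 1.19 in wildtype and by 0.88 in Tnfr2-/-, with no overlap of intervals in either pair. After thinning, 25.8, 96.6, 66.7 and 92.6% of enteroendocrine cells had a Cldn14 UMI (60.6, 100, 100 and 100% unthinned), against 0.336% or less of mesenchymal cells, and no order of the untreated genotypes is read from shares that run opposite to their CPM. In Tnfr2-/- the pooled difference of 11.8 CPM joined 25.1 within classes and -13.3 from class shares, and Cldn14 lay higher with TNF in 3 of 4 classes, all 3 without overlap, including Progenitor.1 (1.42) and Progenitor.2 (1.79). In wildtype Cldn14 lay higher with TNF in 6 of 6 classes, without overlap in all 6, including Progenitor.1 (2.63) and deep secretory cells (2.19). Cldn14 overlaps the annotated gene Gm49618 on the same strand, so reads of the pair may be shared.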
